A study of Mus musculus with 24 samples.

Results

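Macrophages are phagocytes that sit in the dermis and around hair follicles, and the 39 genes described here are transcripts by which these cells are usually recognised in mouse tissue. They were taken from a fixed list of receptors, adaptors, regulators and secreted products of macrophages, with the condition that a gene reach 1 FPKM (fragments scaled to gene length and library size) in at least 4 of 24 libraries. All 39 genes of the list were found in the table of 18892 genes, and all 39 met the condition, as did 13039 genes overall.

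The data were expression values of poly(A) RNA from mouse skin, from 24 mice, with 4 mice in each of 6 groups. Control mice had saline injections and solvent on the skin, model mice had injections of dihydrotestosterone (DHT, a potent androgen) and the same solvent, and treatment mice had DHT injections with an extract of the Hanlianxiang formula (HLX, a traditional Chinese medicine preparation) on the skin. Mice of each kind were killed at day 10 or at day 15. Injections were given daily, and all 3 kinds of mice were injected and had a liquid put on the skin, so no group was left untouched. Strain, sex, age and the dose of DHT or extract are not given in the sources used here.

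Tissue macrophages come from embryonic precursors that renew themselves in place and from blood monocytes that enter the tissue, and both depend on signalling through the receptor Csf1r. Resident macrophages of the dermis carry scavenger receptors and lectins such as Mrc1, Cd163, Lyve1, Folr2 and Clec10a, take up dead cells and debris, and are known to act on hair follicle growth. Newly arrived monocytes and neutrophils share Itgam, Cd14, Fc receptors and complement receptors with them. Several of the genes are also expressed elsewhere: Gas6 in fibroblasts and endothelium, Lyve1 in lymphatic endothelium, Pf4 in platelets, and Marco, Vsig4, Timd4 and Cd5l in macrophages of liver and body cavities. In whole skin, more cells of a type and more RNA per cell cannot be told apart.

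Library depth was between 37048896 and 41117262 reads assigned to genes. Some libraries stood apart in ways that touch the results. At day 15, model replicate 3 held the highest value of its group in 25 of the 39 genes and reached 1569 FPKM of the neutrophil transcript S100a9, and treatment replicate 3 held the lowest value of its group in 36 of 39. Counts that rest on these 2 libraries are given with and without them. Other libraries led or trailed their group about as often and stayed in those fits. Day 15 treatment replicate 2 was highest in 29 genes, day 15 control replicate 1 in 27 and day 10 control replicate 2 in 26. Day 15 control replicate 3 was lowest in 33. The median log2 deviation of the 39 genes from the group mean was 0.75 in day 15 treatment replicate 2 and 0.57 in model replicate 3. The Y-linked transcript Ddx3y was at 14.9 FPKM in day 10 treatment replicate 3 and at 10.5 to 17.5 in day 15 treatment replicates 1, 2 and 4, against 21.4 to 30.6 in the remaining 20 libraries. Kidney transcripts, among them Kap at 14 to 23.9 FPKM, were present in all 8 control and model libraries of day 10, and Kap and Umod were listed at 0 in the other 16. Basal keratinocyte transcripts summed to between 743 and 1712 FPKM over 7 genes in every library, as in skin.

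Promoters of the genes are shown first because the members were chosen as markers and not by any sequence. RefSeq promoter entries (build GRCm38.p6, an older build than the GRCm39 of the expression table) were found for 28 of the 39 genes, and the 250 bases before each listed start were searched on both strands. AGGAAGT, a form of the site bound by PU.1, the ETS factor that Spi1 encodes, was found in 9 of 28 (32.1%): C5ar1, F13a1, Fcgr1, Folr2, Lyz2, Mgl2, Mrc1, Ms4a6c and Pf4. It was found in 8.8% of 14783 genes with an entry. TGANTCA, the site of AP-1 factors, was found in 6 of 28 (21.4%; C3ar1, Cd209f, Cd68, Folr2, Ms4a7 and Trem2) against 6.7% of all genes. A site of IRF (interferon regulatory) factors was searched as well. It was found in 1 of 28 (3.6%, Aif1) against 3.3% of all genes, so this motif was about as frequent in members as elsewhere. AGGAAGT holds the GGAA core that all ETS factors share, and TGANTCA reads the same on both strands.

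The promoters below are 6 of the 9 with AGGAAGT, written 5′ to 3′ on the strand of the gene, with each match in capitals (ACTTCCT is the same site on the other strand). They include 5 genes that rose in model skin at day 10 and Mgl2, which was not called although it holds the site.
Mrc1 (chr2:14229164-14229413, plus strand): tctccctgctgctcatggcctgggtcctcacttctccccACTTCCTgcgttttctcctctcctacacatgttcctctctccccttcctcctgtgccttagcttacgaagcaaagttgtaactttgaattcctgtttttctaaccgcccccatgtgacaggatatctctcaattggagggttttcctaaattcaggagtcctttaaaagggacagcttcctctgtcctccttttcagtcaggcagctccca
F13a1 (chr13:37049214-37049463, minus strand): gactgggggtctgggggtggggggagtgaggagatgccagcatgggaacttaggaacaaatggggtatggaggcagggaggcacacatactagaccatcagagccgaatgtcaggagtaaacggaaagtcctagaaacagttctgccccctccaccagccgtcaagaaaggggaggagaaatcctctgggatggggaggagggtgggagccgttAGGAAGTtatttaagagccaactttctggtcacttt
C5ar1 (chr7:16259339-16259588, minus strand): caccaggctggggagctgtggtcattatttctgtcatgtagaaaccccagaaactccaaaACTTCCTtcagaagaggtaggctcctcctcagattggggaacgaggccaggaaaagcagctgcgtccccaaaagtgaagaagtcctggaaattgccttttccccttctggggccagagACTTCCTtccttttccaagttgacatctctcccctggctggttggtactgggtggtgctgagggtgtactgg
Folr2 (chr7:101857191-101857440, minus strand): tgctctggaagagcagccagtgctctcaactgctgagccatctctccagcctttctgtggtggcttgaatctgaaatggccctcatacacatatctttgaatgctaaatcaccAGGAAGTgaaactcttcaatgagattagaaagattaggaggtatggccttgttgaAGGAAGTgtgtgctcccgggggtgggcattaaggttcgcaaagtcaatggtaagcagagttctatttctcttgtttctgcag
Lyz2 (chr10:117282273-117282522, minus strand): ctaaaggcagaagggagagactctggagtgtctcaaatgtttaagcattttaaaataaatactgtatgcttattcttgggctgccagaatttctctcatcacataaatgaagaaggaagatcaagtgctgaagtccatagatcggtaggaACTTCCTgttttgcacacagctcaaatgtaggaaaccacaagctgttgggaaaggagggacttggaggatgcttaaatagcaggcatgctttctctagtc
Mgl2 (chr11:70130107-70130356, plus strand): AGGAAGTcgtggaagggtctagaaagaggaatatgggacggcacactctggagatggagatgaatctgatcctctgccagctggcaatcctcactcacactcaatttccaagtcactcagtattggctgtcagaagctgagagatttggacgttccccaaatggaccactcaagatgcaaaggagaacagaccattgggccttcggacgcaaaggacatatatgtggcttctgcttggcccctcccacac
C5ar1 and Folr2 held 2 matches each and the other promoters shown held 1. For F13a1 and Folr2, which have 2 listed starts, the start shown is one that holds AGGAAGT. The TGANTCA match counted for Folr2 lies at its other start, which is not shown. A match is a string of letters, and binding of a factor was not measured.

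Per length of gene, the level of the members spanned a wide range. Lyz2, which encodes lysozyme, averaged 1025 FPKM over the 24 libraries, followed by Gas6, a bridging protein that ties dead cells to Mertk, at 138 and the adaptor Tyrobp at 104. At the other end, Cd5l, Vsig4 and Marco averaged between 1.55 and 1.61 FPKM. Marco, a scavenger receptor, reached 1 FPKM in 8 libraries only and rested on as little as 1 read, so its values carry the least information.

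**Figure D1:**
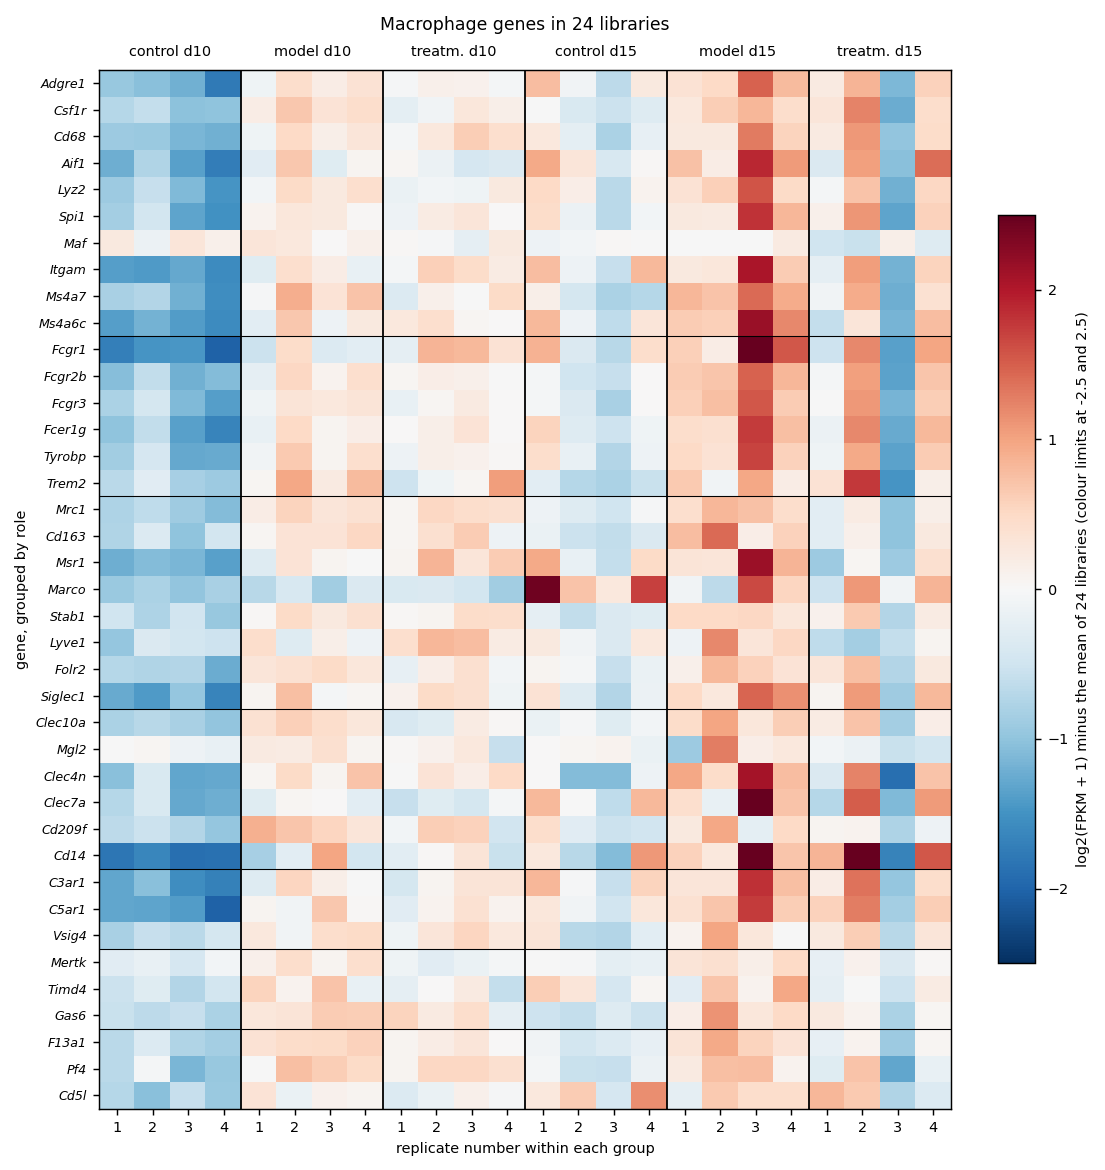
Each row is 1 of the 39 genes, grouped by role, and each column is 1 library. Colour shows log2(FPKM + 1) minus the gene's mean over 24 libraries. The 4 control libraries of day 10 are low in nearly every row, day 15 model replicate 3 is the reddest column for many immune receptors, and day 15 treatment replicate 3 is low in most rows of its group.

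Model skin at day 10 held more RNA of most macrophage genes than control skin. Of 39 genes 28 rose and 0 fell (limma, Benjamini-Hochberg adjusted p under 0.05), whereas 13.8% of all tested genes were called in either direction with 6.79% higher and 7.04% lower. The median log2 difference on the log2(FPKM + 1) scale was 1.22, with a range from 0.04 to 1.68, against a median of -0.02 over all genes. The 4 model libraries lay above all 4 control libraries in 37 of 39 genes, which held for 12.5% of all genes in that direction and for 9.3% in the other. Marco and Maf were the exceptions. The number of calls fell to 13 without control replicate 3 and also without model replicate 2, to 15 without model replicate 3, to 16 without control replicate 4, and to 18 without control replicate 1 or model replicate 4, while the median stayed between 1.12 and 1.31 over the 8 fits that each left out 1 library. Adgre1, Ms4a7, Mrc1, Stab1, Folr2, Siglec1, Clec10a, Cd209f, C5ar1, Mertk, Gas6 and F13a1 were called in all 8 of them, and the other 16 genes lost their call in at least 1.

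Among the genes of lineage identity, 8 of 10 rose. Adgre1, which encodes the surface marker F4/80, was at 16.5, 15.3, 13.7 and 8.90 FPKM in the 4 control libraries and at 30.0, 44.7, 37.2 and 42.4 in the 4 model libraries (log2 difference 1.46, SE 0.34, adjusted p = 0.011). Csf1r, the receptor for the macrophage growth factor, was at 29.3, 31.9, 23.7 and 23.9 (control) against 55.6, 78.2, 62.1 and 66.4 (model) FPKM (log2 difference 1.24, SE 0.31, adjusted p = 0.015). In both genes the lowest model library was above the highest control library. Ms4a7, a membrane protein gene of macrophages, was at 8.78, 9.22, 6.45 and 4.85 in control and 15.7, 31.1, 20.7 and 27.1 FPKM in model skin (log2 difference 1.56, SE 0.34, adjusted p = 0.0078). Cd68, Lyz2, Spi1, Itgam and Ms4a6c rose as well, with log2 differences between 1.20 (Spi1, the PU.1 gene) and 1.51 (Ms4a6c). The call of Spi1 was lost with no filter, median-of-ratios scaling, a replicate block and voom, and in 7 of 8 fits that left out 1 library. Aif1, an actin-binding protein, had a difference of 1.30 and an adjusted p of 0.05 that did not pass. Maf, a transcription factor also expressed outside macrophages, was at 67.3 ± 9.02 FPKM (SD, n = 4, as for every value with ± here) in control and 69.1 ± 6.70 in model skin (log2 difference 0.04, SE 0.13, adjusted p = 0.86).

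Fc receptors bind antibody, and Fcer1g and Tyrobp are adaptors that pass on the signals of receptors. Of this group of 6 genes, which includes Trem2, 4 rose. Their differences lay close together: 1.13 for Fcgr3, 1.19 for the inhibitory receptor Fcgr2b, 1.22 for Tyrobp and 1.29 for Fcer1g. Each of the 4 lost its call in 6 of 8 fits that left out 1 library, Tyrobp also with no filter and Fcer1g also by voom. The high-affinity receptor Fcgr1 had a larger difference with a larger error (log2 difference 1.49, SE 0.52, adjusted p = 0.061) and was not called. Trem2, a lipid-sensing receptor, was at 2.89, 4.12, 2.51 and 2.32 FPKM in control and 5.44, 11.2, 6.23 and 9.84 in model libraries. These values did not overlap, but the test was not passed (log2 difference 1.18, SE 0.45, adjusted p = 0.082).

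Scavenger and endocytic receptors rose in 6 of 8. Mrc1, the mannose receptor, was at 38.3, 42.3, 35.4 and 30.8 FPKM in control and 75.6, 98.5, 82.4 and 86.8 in model libraries, 2.34 times the control mean (log2 difference 1.21, SE 0.19, adjusted p = 0.0019). Cd163, which takes up haemoglobin bound to haptoglobin, was at 22.8, 30.4, 18.9 and 28 (control) against 40.3, 49.4, 49.8 and 56.1 (model) FPKM (log2 difference 0.95, SE 0.25, adjusted p = 0.02). Folr2, a folate receptor of resident macrophages, was at 33.9, 33, 33.2 and 23.3 (control) against 69.6, 73.3, 78.7 and 68.1 (model) FPKM (log2 difference 1.22, SE 0.23, adjusted p = 0.0036). The lowest model library was above the highest control library in all 3 genes. Stab1, a clearance receptor, was at 6.53, 5.21, 6.63 and 4.47 (control) against 9.73, 13.7, 11.6 and 13.1 (model) FPKM (log2 difference 0.96, SE 0.20, adjusted p = 0.006), and Msr1, which binds modified lipoproteins, at 1.56, 1.82, 1.71 and 1.35 (control) against 3.75, 6.58, 5.30 and 4.97 (model) (log2 difference 1.22, SE 0.37, adjusted p = 0.034). Siglec1, a sialic acid receptor, rose by 1.53. Lyve1, a hyaluronan receptor, was at 10.7, 16.6, 15.5 and 14.9 FPKM in control and 29.6, 17.1, 24 and 19.8 in model libraries and was not called (log2 difference 0.61, SE 0.25, adjusted p = 0.1). Of 6 lymphatic endothelial genes, 5 were tested and 0 were called in this comparison, with summed levels of 62.1 to 154 FPKM in control and 80.6 to 158 in model libraries. Marco was not called (log2 difference 0.31, SE 0.44, adjusted p = 0.68).

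Lectins and pattern receptors rose in 2 of 6. Clec10a, a galactose-type lectin, was at 36.9, 39.7, 36.4 and 32.1 FPKM in control and 84.3, 98.1, 87.8 and 78.2 in model libraries (log2 difference 1.24, SE 0.22, adjusted p = 0.0027). Mgl2, its neighbour and close copy, was at 24.6, 25.8, 22.8 and 21.6 (control) against 29.4, 28.7, 33.1 and 26 (model) FPKM and was not called (log2 difference 0.29, SE 0.27, adjusted p = 0.5). The ratio of Clec10a to Mgl2 was 1.49 to 1.60 in the control and 2.66 to 3.42 in the model libraries. At day 15 it was 1.94 to 2.77 (control) and 2.1 to 6.86 (model), with overlap. An exact permutation test gave an unadjusted p = 0.0286 at day 10, the smallest value it can give with 4 mice per group. The exact permutation test, adjusted over 4 comparisons, gave p = 0.114 at day 10 and p = 0.343 at day 15. The other comparisons had larger p, so the adjusted day 10 value could not have been lower and cannot decide whether the ratio differed. This pair was singled out after its values were seen, and reads of such close copies can be divided uncertainly by the counting. Cd209f, a lectin of the DC-SIGN family, was at 22.3, 24.3, 20.9 and 17.6 (control) against 66.4, 57.7, 51.8 and 43.8 (model) FPKM (log2 difference 1.32, SE 0.27, adjusted p = 0.0056). Cd14, the co-receptor for bacterial lipopolysaccharide, was at 5.40, 6.25, 5.05 and 5.17 FPKM in control and 11.7, 17.7, 43.3 and 15.4 in model libraries. The groups did not overlap, but model replicate 3 was far above the rest of its group and Cd14 was not called (log2 difference 1.66, SE 0.75, adjusted p = 0.14). Neither Clec4n (log2 difference 1.32, SE 0.47, adjusted p = 0.066) nor the glucan receptor Clec7a (log2 difference 0.77, SE 0.55, adjusted p = 0.36) passed.

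All 3 complement receptors rose. C5ar1, which senses the fragment C5a, was at 5.74, 5.72, 5.36 and 3.09 FPKM in control and 16.5, 14.8, 25.6 and 16.1 in model libraries and had the largest difference of the 39 genes (log2 difference 1.68, SE 0.34, adjusted p = 0.0056). C3ar1 rose by 1.48, and Vsig4, which binds C3 fragments, by 0.90 at levels under 3 FPKM.

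All 3 genes of dead cell uptake rose too. Mertk, a receptor for dead cells, was at 4.11, 4.42, 3.63 and 4.90 FPKM in control and 5.77, 7.40, 5.48 and 7.33 in model libraries, a small but narrow difference (log2 difference 0.50, SE 0.11, adjusted p = 0.0081). Its ligand Gas6 was at 87.7, 82, 85.6 and 73.9 (control) against 157, 161, 202 and 198 (model) FPKM (log2 difference 1.11, SE 0.21, adjusted p = 0.0037), and Timd4, a phosphatidylserine receptor, rose by 0.80 with a call that depended on the processing (1.03 ± 0.254 FPKM in control and 2.62 ± 1.01 in model skin). Libraries of both groups did not overlap in any of the 3 genes. The call of Timd4 was lost with no filter, median-of-ratios scaling, a replicate block and voom, and in 6 of 8 fits that left out 1 library.

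Among secreted products, F13a1, the coagulation factor XIII subunit made by resident macrophages, had the smallest p of the 39. It was at 55.3, 69.9, 52 and 48.6 FPKM in control and 114, 123, 124 and 132 in model libraries (log2 difference 1.13, SE 0.17, adjusted p = 0.0013). Pf4, a chemokine of platelets and of some macrophages, rose by 1.17 (52.5 ± 18.9 and 116 ± 24.4 FPKM), and 0 of 3 tested platelet genes were called. The platelet list summed to 2.56 to 3.53 FPKM in control and 3.0 to 6.81 in model libraries. Of its genes, Ppbp was at 0.0245 to 0.539 FPKM in control and 0.595 to 4.05 in model libraries without overlap (adjusted p = 0.21), Itga2b was at 1.35 to 1.95 and 1.28 to 1.67, and Gp9 was at most 0.0442. The part of platelets in the Pf4 value was not tested. Cd5l was not called (log2 difference 0.90, SE 0.31, adjusted p = 0.057).

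**Figure D2:**
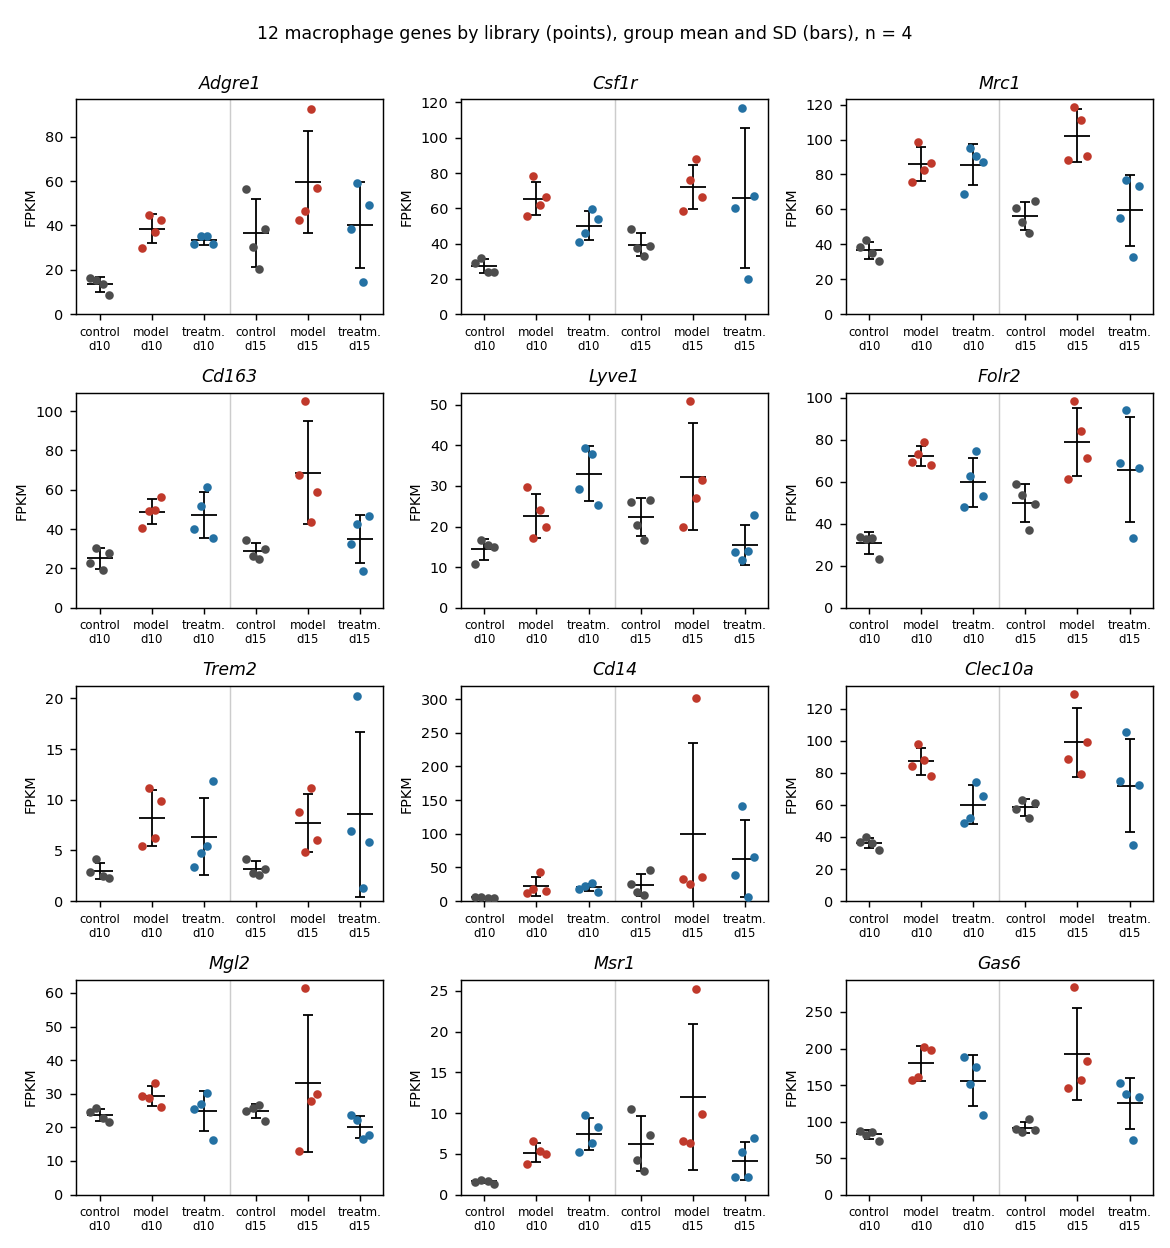
Each panel shows FPKM of 1 gene, with a point per library and the mean and SD of 4 mice per group (the lower SD bar of Cd14 in day 15 model skin runs below 0 and is cut off). Mrc1 is at 75.6 to 98.5 in model skin of day 10 and at 30.8 to 42.3 in control skin, and in day 15 treatment skin its lowest library is at 32.6.

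Genes of the same pathways outside the 39 were counted beside them in model against control skin at day 10. In that comparison 6.79% of all genes were called higher and 7.04% lower. Of 8 genes of C1q and the phagocyte oxidase 6 rose, such as Ncf1 (7.60 to 21.3 FPKM, adjusted p = 0.0051) and C1qb (90.7 to 229 FPKM, adjusted p = 0.0078). Of 14 other macrophage genes 11 rose, with Hpgds (3.04 to 6.98 FPKM, adjusted p = 0.00027) and Cd86 (3.44 to 8.49 FPKM, adjusted p = 0.0051). Of 12 genes of growth factors and monocyte recruitment, 10 were tested, 2 rose and 1 fell: Ccl8 (280.4 to 738 FPKM, adjusted p = 0.0019), Csf1 (7.19 to 14.7 FPKM, adjusted p = 0.028), and the chemokine Cx3cl1 (3.96 to 3.01 FPKM, adjusted p = 0.04). Of 12 further genes of dead cell uptake 4 rose and 1 fell, with Pros1 (27.4 to 45.5 FPKM, adjusted p = 0.0025), another ligand of Mertk-type receptors, and Abca1 (18.1 to 27.9 FPKM, adjusted p = 0.019). Of 9 tested genes of alternative activation 1 rose, Cd200r1 (2.66 to 5.19 FPKM, adjusted p = 0.029). Of 10 tested inflammatory products 0 were called. The one with the smallest p, Cxcl2, was at a mean of 0.228 FPKM in control and 22.4 in model skin (adjusted p = 0.091).

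Markers of other cells were called in the same comparison. Of all genes, 6.79% were called higher, so 1 call in a list of 10 is near that share. Of 12 pan-leukocyte genes 4 rose, of 6 tested monocyte genes 3, of 10 tested neutrophil genes 3, of 10 tested genes of dendritic and Langerhans cells 1, of 10 fibroblast genes 2 and of 9 genes of blood endothelium 2, whereas 0 of 8 tested genes of T, NK and B cells, 0 of 7 adipocyte and 0 of 8 muscle genes were called. Of 10 mast cell genes 1 fell, of 7 basal keratinocyte genes 1 fell and of 10 genes of hair shaft and inner root sheath 9 fell, whereas 7.04% of all genes were called lower. The mast cell list as a whole had a median difference of 0.43 (range -0.45 to 1.48). It summed to 86.3 to 165 FPKM in control and 98.5 to 197 in model libraries. All 3 tested kidney genes (Kap, Umod and Slc34a1) fell too, and the kidney list summed to 25.3 to 29.1 FPKM in control and 17.7 to 25.3 in model libraries. The summed level of the neutrophil list was 46.1 to 54.8 FPKM in control and 118 to 313 in model libraries. S100a9, one of the 3 neutrophil genes that rose with Il1r2 and Csf3r, was at 3.19 to 7.71 FPKM in control and 31.8 to 139 in model libraries. Of the 14 genes of that list, 4 were under the filter, with group means in model skin of 0.00701 FPKM for Ly6g, 0.0499 for Ngp, 0.086 for Mpo and 0.0911 for Elane. Of fibroblast genes the sums were 3228 to 4919 and 5479 to 8345 FPKM, and of pan-leukocyte genes 148 to 236 and 297 to 453. Hair shaft genes summed to 7992 to 14070 FPKM in control and 4629 to 9083 in model libraries. The part of these other cells and of the kidney transcripts in the result was not tested.

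At day 15 the model libraries were again mostly above control, in fewer genes. Of 39 genes 11 rose and 0 fell (limma, adjusted p under 0.05), whereas 10.8% of all genes were called in either direction with 4.23% higher and 6.56% lower. The median log2 difference was 0.82 with a range from -0.92 to 1.63, against -0.03 over all genes, and the groups did not overlap in 16 of 39, against 7.89% of all genes in that direction. Without the 2 libraries that stood apart, 13 rose and 1 fell (Marco), with a median of 0.62. Of these 2, treatment replicate 3 is in neither group compared, so leaving it out alters only the spread estimated over all groups. That fit called 1219 of 13039 genes, and a fit without model replicate 3 alone called 500. The member count was 4 without control replicate 3, 5 without control replicate 4, and 6 without control replicate 2 or model replicate 3.

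Of the 11 genes, 10 were also called at day 10: Ms4a7, Fcgr2b, Fcgr3, Mrc1, Cd163, Stab1, Clec10a, Mertk, Gas6 and F13a1. Gas6 had the smallest p, at 89.4, 85.3, 104 and 88.8 FPKM in control and 146, 284, 158 and 183 in model libraries (log2 difference 1.01, SE 0.21, adjusted p = 0.0085). F13a1 was at 83.3, 64.2, 70.1 and 76.8 (control) against 111, 172, 132 and 113 (model) FPKM (log2 difference 0.82, SE 0.17, adjusted p = 0.0092). In both genes every model library was above every control library. Cd163 was at 34.4, 26.4, 24.9 and 29.9 (control) against 67.4, 105, 43.6 and 58.7 (model) FPKM (log2 difference 1.16, SE 0.25, adjusted p = 0.011), and Mrc1 at 61, 52.6, 46.7 and 64.8 (control) against 88.5, 118, 111 and 90.5 (model) (log2 difference 0.85, SE 0.19, adjusted p = 0.013). Mrc1 was not called without control replicate 3 (adjusted p = 0.052), whereas Gas6, F13a1 and Cd163 were called in all 8 fits that left out 1 library.

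Ms4a7 was at 17.8, 11.6, 8.86 and 9.40 FPKM in control and 29.5, 26.8, 44.3 and 31.4 in model libraries (log2 difference 1.42, SE 0.34, adjusted p = 0.016). Stab1 was at 8.03, 5.88, 7.18 and 7.61 (control) against 13.9, 14, 14.1 and 11.9 (model) FPKM (log2 difference 0.83, SE 0.20, adjusted p = 0.016), and Mertk at 5.13, 5.04, 4.23 and 4.47 (control) against 6.74, 7.17, 5.86 and 7.72 (model) (log2 difference 0.46, SE 0.11, adjusted p = 0.016). The groups did not overlap in these 3 genes. Stab1 lost its call without control replicate 2, Mertk without control replicate 3 or 4, and Ms4a7 without control replicate 3 or 4 or model replicate 3. The Fc receptor Fcgr3 was at 37.2, 29.7, 21.5 and 39 (control) against 58.9, 66.1, 116 and 60.6 (model) FPKM (log2 difference 1.19, SE 0.33, adjusted p = 0.031) and Fcgr2b at 57.7, 42, 39.9 and 60.1 (control) against 93.7, 97, 168 and 107 (model) (log2 difference 1.19, SE 0.33, adjusted p = 0.031). In both receptors model replicate 3 was the highest library, and neither was called without it or in 4 of the other 7 fits that left out 1 library. With treatment replicate 3 left out too, which is in neither group and alters only the estimated spread, both were called. Their differences were then 0.97 for Fcgr3 (adjusted p = 0.019) and 1.0 for Fcgr2b (adjusted p = 0.011). Clec10a was at 57.4, 63.2, 51.8 and 61 (control) against 88.2, 129, 79 and 99.3 (model) FPKM (log2 difference 0.73, SE 0.22, adjusted p = 0.039) and lost its call with no filter and in 7 of 8 fits that left out 1 library. Clec4n, a lectin that recognises fungi, was called at this day and not at day 10 (log2 difference 1.63, SE 0.47, adjusted p = 0.035), and it lost its call with no filter, in a fit of only the groups compared, without model replicate 3 and without control replicate 2, 3 or 4. The test of a change of this difference between days called no gene.

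The other panel genes were not called. Adgre1 was at 56.4, 30.4, 20.4 and 38.6 FPKM in control and 42.3, 46.5, 92.5 and 56.9 in model libraries, so the groups overlapped (log2 difference 0.71, SE 0.34, adjusted p = 0.16). Csf1r was at 48.2, 37.4, 33.3 and 38.9 (control) against 58.7, 75.8, 87.9 and 66.3 (model) FPKM with no overlap (log2 difference 0.85, SE 0.31, adjusted p = 0.076), and Folr2 at 58.8, 53.8, 37.2 and 49.6 (control) against 61.5, 98.6, 84.4 and 71.6 (model) (log2 difference 0.65, SE 0.23, adjusted p = 0.066). Both were called without the 2 libraries that stood apart, Csf1r at 0.75 (adjusted p = 0.022) and Folr2 at 0.61 (adjusted p = 0.043). The differences were smaller in that fit, and 1 of the 2 libraries, treatment replicate 3, enters only through the estimated spread. Compared with day 10, the control libraries stood at higher levels, with the highest control library of Adgre1 above 2 model libraries. Trem2 was at 4.20, 2.79, 2.61 and 3.21 (control) against 8.84, 4.84, 11.2 and 6.06 (model) FPKM (log2 difference 1.01, SE 0.45, adjusted p = 0.14), Msr1 at 10.5, 4.25, 2.94 and 7.36 (control) against 6.52, 6.33, 25.2 and 9.84 (model) (log2 difference 0.74, SE 0.37, adjusted p = 0.18), and Lyve1 at 26.1, 20.3, 16.7 and 26.4 (control) against 19.8, 50.9, 27.1 and 31.5 (model) (log2 difference 0.45, SE 0.25, adjusted p = 0.22). Cd14 was at 26.1, 12.8, 9.69 and 46.6 (control) against 32.6, 26.1, 302 and 35.5 (model) FPKM, with model replicate 3 far above every other library (log2 difference 1.43, SE 0.75, adjusted p = 0.2). Mgl2 was at 24.9, 25.8, 26.7 and 22 (control) against 12.9, 61.5, 27.9 and 30.0 (model) FPKM (log2 difference 0.20, SE 0.27, adjusted p = 0.65), and its model libraries held both the lowest and the highest value of the 8. Marco had the lowest difference of the 39, at 9.88, 2.32, 1.43 and 5.61 against 0.904, 0.280, 5.34 and 1.92 FPKM, and was not called (log2 difference -0.92, SE 0.44, adjusted p = 0.16).

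Beside the 39, the chemokines Ccl8 (536 to 1136 FPKM, adjusted p = 0.0088) and Ccl12 (8.23 to 40.2 FPKM, adjusted p = 0.019) rose at day 15 and Cx3cl1 (3.51 to 2.63 FPKM, adjusted p = 0.038) fell among 10 tested genes of recruitment. Of 14 other macrophage genes 3 rose (Hpgds, Lgmn and Cbr2), of 12 genes of dead cell uptake 2 rose and 1 fell, of 9 of alternative activation 1 rose (Cd200r1), of 10 inflammatory products 1 rose, Cxcl10 (6.19 to 57.4 FPKM, adjusted p = 0.049), and of 8 genes of C1q and the oxidase 0 were called. Over all genes, 4.23% were called higher and 6.56% lower, so a single call in lists this short is given as a count only. Of 12 pan-leukocyte genes 0 were called, of 10 neutrophil genes 2, of 6 monocyte genes 1 and of 10 fibroblast genes 3 rose, and of 10 hair shaft genes 5 fell. The neutrophil list summed to 73.1 to 323 FPKM in control and 155 to 3166 in model libraries, with the maximum in model replicate 3. Its part in the result was not tested.

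**Figure D3:**
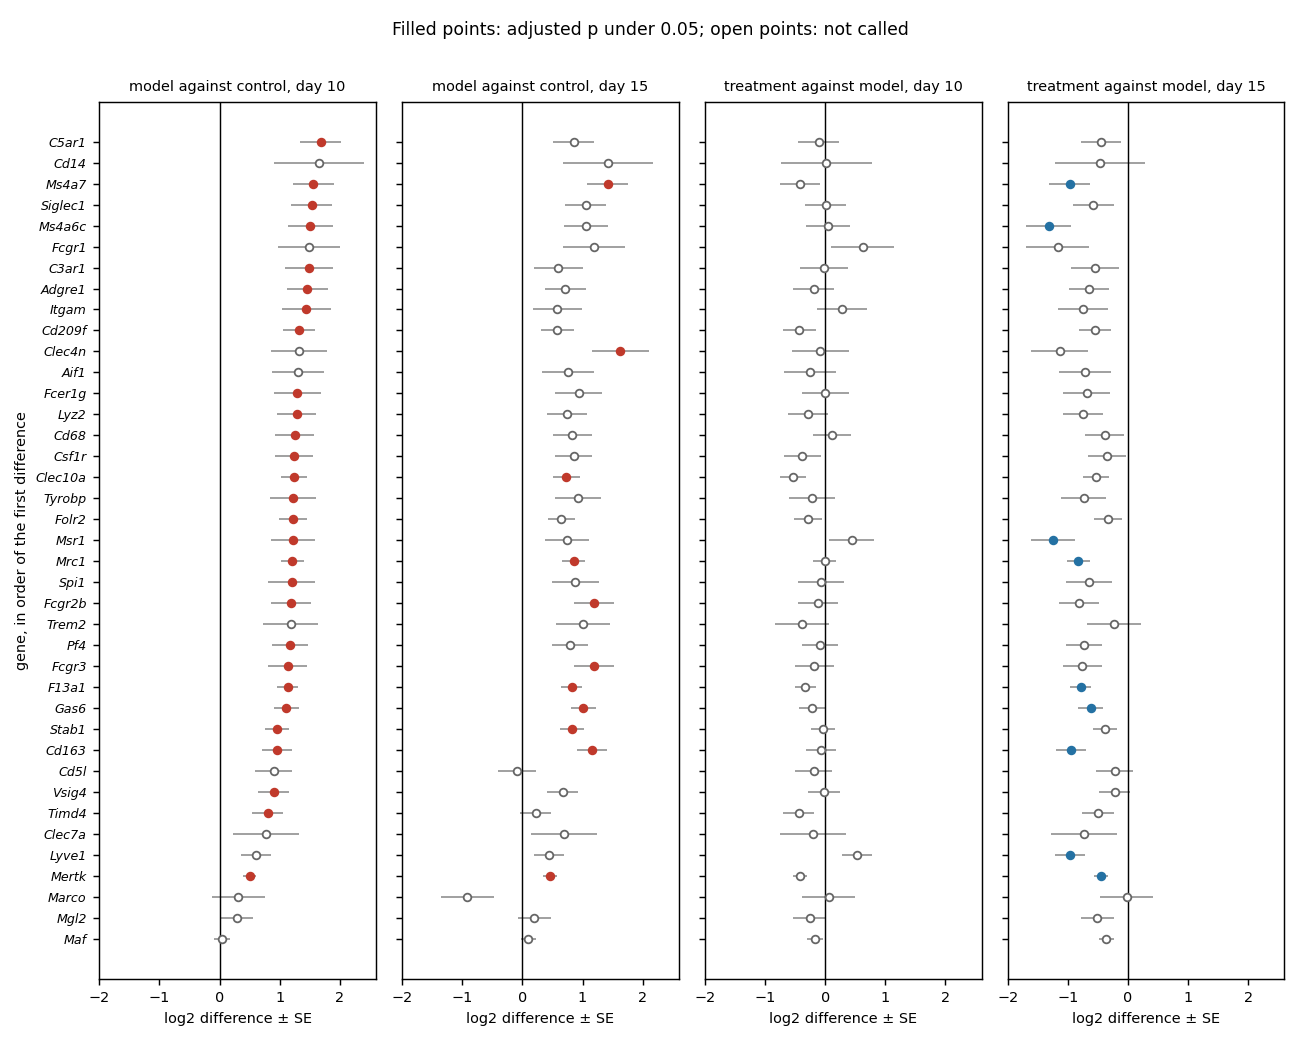
Log2 difference with its SE for each of the 39 genes in 4 comparisons. Filled points passed an adjusted p of 0.05 and open points did not. Nearly all points lie right of 0 in model against control skin of both days, lie around 0 in treatment against model skin at day 10, and lie left of 0 at day 15.

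The comparison of treatment with model skin asks what the extract changed under continued DHT, and it shares the model libraries with the comparisons above. At day 10, 0 of 39 genes were called by limma and 0 by voom, whereas 0.192% of all genes were called (0.092% higher and 0.0997% lower). At an unadjusted p under 0.05 there were 3, Mertk, Clec10a and Lyve1, against 10.4% of all genes. The median log2 difference was -0.12 (range -0.54 to 0.62), against -0.03 over all genes, and groups did not overlap in 3 of 39 genes, all lower in treatment skin, against 6.24% of all genes in that direction and 2.75% in the other. Mertk was at 4.77, 4.06, 4.53 and 5.01 FPKM in treatment libraries, below all model libraries (log2 difference -0.42, 95% interval -0.65 to -0.19, adjusted p = 0.18). Clec10a was at 48.6, 52.1, 74.3 and 65.8 FPKM, also below all model libraries (log2 difference -0.54, 95% interval -1.0 to -0.09, adjusted p = 0.39). F13a1, the other gene without overlap, was at 92.7, 101, 110.2 and 89.6 FPKM (log2 difference -0.33, 95% interval -0.69 to 0.03, adjusted p = 0.52).

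For the other genes of the panel the treatment and model libraries of day 10 overlapped. Adgre1 was at 31.8, 35.5, 35.1 and 31.5 FPKM (log2 difference -0.19, 95% interval -0.89 to 0.52, adjusted p = 0.89), Csf1r at 41.2, 46.1, 59.5 and 53.9 (log2 difference -0.38, 95% interval -1.03 to 0.26, adjusted p = 0.7), and Mrc1 at 68.9, 95.3, 90.7 and 87.4 (log2 difference -0.01, 95% interval -0.41 to 0.39, adjusted p = 0.99). Cd163 was at 40.2, 51.5, 61.4 and 35.5 FPKM (log2 difference -0.07, 95% interval -0.60 to 0.45, adjusted p = 0.95), Folr2 at 48.1, 62.5, 74.7 and 53.4 (log2 difference -0.29, 95% interval -0.76 to 0.18, adjusted p = 0.68) and Gas6 at 189, 152, 174 and 109.5 (log2 difference -0.22, 95% interval -0.66 to 0.21, adjusted p = 0.76). The intervals of these 6 genes leave room for changes in either direction. Lyve1 was the panel gene with the highest estimate relative to model skin, at 29.3, 39.4, 37.8 and 25.3 FPKM (log2 difference 0.53, 95% interval 0.02 to 1.04, adjusted p = 0.46). Trem2 was at 3.32, 4.76, 5.47 and 11.9 FPKM (log2 difference -0.39, 95% interval -1.33 to 0.54, adjusted p = 0.81), Msr1 at 5.25, 9.75, 6.36 and 8.28 (log2 difference 0.44, 95% interval -0.33 to 1.21, adjusted p = 0.72), Mgl2 at 25.4, 27, 30.2 and 16.3 (log2 difference -0.26, 95% interval -0.84 to 0.31, adjusted p = 0.79) and Cd14 at 17.7, 22.1, 27 and 14.2 (log2 difference 0.02, 95% interval -1.54 to 1.58, adjusted p = 0.99). Outside the 39, Hpgds (6.98 to 3.77 FPKM, adjusted p = 0.0087), the haematopoietic prostaglandin D synthase, fell and was the one call among the 6 lists of macrophage pathways. Kap and Umod were in every model library and at 0 in every treatment library of this day, and their part in these values was not tested.

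At day 15 the treatment libraries were lower than model libraries in 9 of 39 genes and higher in 0 (limma, adjusted p under 0.05), whereas 19.7% of all genes were called in either direction with 9.32% lower and 10.3% higher. The fitted difference was below 0 in all 39, with a median of -0.65 (range -1.32 to -0.02) against -0.02 over all genes. The groups did not overlap in 3 genes, Mrc1, Mertk and F13a1, while 4.79% of all genes were so in that direction and 7.98% in the other. This result rests on how the spread is estimated and on single libraries. A fit of only these 8 libraries called 0 of 39 genes and 0 of all genes. Without the 2 libraries that stood apart, the median was -0.10, with 23 of the 39 differences below 0 and 16 above. That fit drops a high model library and a low treatment library, which by itself moves the difference up. It keeps treatment replicate 2, the highest of its group in 29 genes. In that fit 6 members were called lower, whereas 2631 of 13039 genes were called in either direction. Of the 6, Mrc1, Cd163, Lyve1, Mertk and F13a1 were among the 9 and Maf was not. With single libraries left out in turn, 6 to 17 members and 1221 to 2947 of all genes were called. The highest member count came without treatment replicate 2. Without the 4 treatment libraries low in Ddx3y, which leaves treatment replicate 3 as the only one of its group at day 15, the median was -1.75. That value compares 1 mouse with 4.

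Mrc1, F13a1, Mertk, Cd163 and Lyve1 were called with and without those 2 libraries, and none of them in the fit of only these 8 libraries. Mrc1 was at 88.5, 118, 111 and 90.5 FPKM in model and 55.1, 76.6, 32.6 and 73.7 in treatment libraries (log2 difference -0.83, SE 0.19, adjusted p = 0.0069), and at -0.53 without the 2 libraries (adjusted p = 0.024). F13a1 was at 111, 172, 132 and 113 (model) against 76.6, 94.2, 46.9 and 91.8 (treatment) FPKM (log2 difference -0.79, SE 0.17, adjusted p = 0.005; -0.57 and adjusted p = 0.013 without them). Every treatment library was below every model library in both genes. Mertk was at 6.74, 7.17, 5.86 and 7.72 (model) against 4.38, 5.65, 3.85 and 5.27 (treatment) FPKM, again without overlap (log2 difference -0.45, SE 0.11, adjusted p = 0.0096; -0.43 and adjusted p = 0.012 without them). Cd163 was at 67.4, 105, 43.6 and 58.7 (model) against 32.4, 42.5, 18.9 and 46.5 (treatment) FPKM (log2 difference -0.95, SE 0.25, adjusted p = 0.014; -0.88 and adjusted p = 0.0098 without them), but not called without model replicate 2. Lyve1 was at 19.8, 50.9, 27.1 and 31.5 (model) against 13.7, 11.7, 14 and 22.8 (treatment) FPKM (log2 difference -0.97, SE 0.25, adjusted p = 0.011; -1.0 and adjusted p = 0.023 without them). Of 5 tested lymphatic endothelial genes 0 were called, and their sum was 116 to 148 FPKM in model and 40.4 to 116 in treatment libraries. The part of lymphatic vessels in the Lyve1 value was not tested.

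The other 4 calls were lost without the 2 libraries. Ms4a7 also lost its call with no filter, median-of-ratios scaling, array weights or a replicate block, Gas6 with no filter, array weights or a replicate block, and Msr1 with array weights. Msr1 was at 6.52, 6.33, 25.2 and 9.84 FPKM in model and 2.17, 5.18, 2.17 and 6.91 in treatment libraries (log2 difference -1.25, SE 0.37, adjusted p = 0.024; adjusted p = 0.18 without them). Ms4a6c was at 54.9, 53.2, 158 and 81.4 (model) against 22.6, 43.4, 15 and 60.3 (treatment) FPKM (log2 difference -1.32, SE 0.37, adjusted p = 0.019; adjusted p = 0.17 without them). In both genes model replicate 3 was far above the other 3 model libraries. Gas6 was at 146, 284, 158 and 183 (model) against 153, 138, 74 and 134 (treatment) FPKM (log2 difference -0.62, SE 0.21, adjusted p = 0.042; adjusted p = 0.094 without them), and Ms4a7 at 29.5, 26.8, 44.3 and 31.4 (model) against 15.1, 31.4, 6.31 and 21.3 (treatment) (log2 difference -0.97, SE 0.34, adjusted p = 0.047; adjusted p = 0.34 without them). In these 2 genes treatment replicate 3 was the lowest of the 8 libraries.

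The remaining genes of the panel were not called in treatment against model skin at day 15. Of the 10 lineage genes, Ms4a7 and Ms4a6c were the 2 called. Adgre1 was at 38.2, 59.2, 14.4 and 49.3 FPKM (log2 difference -0.65, SE 0.34, adjusted p = 0.17), with a difference of 0.00 without the 2 libraries. Csf1r was at 60.4, 117, 20.3 and 66.9 FPKM (log2 difference -0.35, SE 0.31, adjusted p = 0.44), and 0.22 without them. Treatment replicate 2 held the highest and replicate 3 the lowest Csf1r value of the 8 libraries. Folr2 was at 69, 94.4, 33.3 and 66.5 (log2 difference -0.33, SE 0.23, adjusted p = 0.31), Clec10a at 74.6, 106, 35.2 and 72.5 (log2 difference -0.53, SE 0.22, adjusted p = 0.091), Mgl2 at 23.5, 22.3, 16.7 and 17.9 (log2 difference -0.51, SE 0.27, adjusted p = 0.19), Trem2 at 6.97, 20.2, 1.25 and 5.85 (log2 difference -0.23, SE 0.45, adjusted p = 0.74) and Cd14 at 39.5, 141, 6.11 and 65.4 FPKM (log2 difference -0.47, SE 0.75, adjusted p = 0.68). For Cd14 the fitted difference went from -0.47 to 1.17 without the 2 libraries (adjusted p = 0.1), so its sign depended on them.

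Some related genes and markers of other cell types were called in the same comparison. Of all genes, 9.32% were called lower and 10.3% higher, so 1 call in a list of 10 is near that share. Ccl8 (1136 to 603 FPKM, adjusted p = 0.0065) and the monocyte chemokine receptor Ccr2 (40.8 to 17.6 FPKM, adjusted p = 0.017) fell among 10 genes of recruitment, Hpgds (5.57 to 2.87 FPKM, adjusted p = 0.0011), Cd86 (10.9 to 5.91 FPKM, adjusted p = 0.023) and Ccl9 (174 to 87 FPKM, adjusted p = 0.047) among 14 other macrophage genes, and Cd200r1 (7.58 to 3.19 FPKM, adjusted p = 0.006) among 9 of alternative activation. Of 12 genes of dead cell uptake Pros1 and Abca1 fell and Tyro3 rose, and 0 of 8 genes of C1q and the oxidase and 0 of 10 inflammatory products were called. Of 12 pan-leukocyte genes 0 were called, of 6 monocyte genes 0, of 10 neutrophil genes 1 fell and of 10 dendritic cell genes 1 fell. Of 10 fibroblast genes 2 fell, and all 10 genes of hair shaft and inner root sheath rose. Fibroblast genes summed to 5875 to 10270 FPKM in model and 2290 to 7064 in treatment libraries, pan-leukocyte genes to 385 to 1181 and 145 to 692, and neutrophil genes to 155 to 3166 and 62.4 to 492. Their part in the result was not tested.

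Of the 39 genes, 6 were called higher in model skin at both days and lower in treatment skin at day 15: Ms4a7, Mrc1, Cd163, Mertk, Gas6 and F13a1. The comparisons share model libraries, which pushes their differences in opposite directions, so this overlap is given as a count only. Aif1, Maf, Fcgr1, Trem2, Marco, Mgl2, Clec7a, Cd14 and Cd5l were called in none of the 4 comparisons.

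Treatment skin was also set against control skin. At day 10, 15 of 39 genes rose and 0 fell, whereas 3.24% of all genes were called in either direction (2.2% higher and 1.04% lower), and the median difference was 1.0 against -0.05 over all genes. Mrc1 (log2 difference 1.20, SE 0.19, adjusted p = 0.0028), F13a1 (log2 difference 0.80, SE 0.17, adjusted p = 0.016), Stab1 (log2 difference 0.92, SE 0.20, adjusted p = 0.016), Lyve1 (log2 difference 1.13, SE 0.25, adjusted p = 0.016) and C5ar1 (log2 difference 1.58, SE 0.34, adjusted p = 0.017) had the smallest p. Groups did not overlap in 32 of 39, against 11.4% of all genes in that direction. The count was sensitive to single libraries, at 1 without treatment replicate 3, 2 without treatment replicate 2 or control replicate 4, and 5 without control replicate 1 or 3. Markers of other cells differed as well: the neutrophil list summed to 46.1 to 54.8 FPKM in control and 167 to 253 in treatment libraries, pan-leukocyte genes to 148 to 236 and 335 to 414, and fibroblast genes to 3228 to 4919 and 6054 to 7107. Kap and Umod were in every control library and at 0 in every treatment library of this day, and the part of all of these in the result was not tested. At day 15, 0 of 39 were called by limma and by voom, whereas 0.314% of all genes were called (0.0307% higher and 0.284% lower). An unadjusted p under 0.05 was reached by 3 members, against 19.7% of all genes. The groups overlapped in all 39 genes, and 3.1% and 4% of all genes did not overlap, higher and lower. The smallest p belonged to Stab1 (log2 difference 0.44, 95% interval 0.03 to 0.86, adjusted p = 0.22), Marco (log2 difference -0.94, 95% interval -1.86 to -0.03, adjusted p = 0.24) and Lyve1 (log2 difference -0.52, 95% interval -1.03 to -0.01, adjusted p = 0.25). The median was 0.06. Without the 2 libraries that stood apart it was 0.48 with 15 members higher and 1 lower, whereas 3045 of 13039 genes were called. Without treatment replicate 3 alone, 14 members were higher and 1 lower, whereas 2665 of all genes were called.

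Between days, control skin itself changed. Of 39 genes 8 rose from day 10 to day 15 and 0 fell, whereas 4.81% of all genes were called in either direction (1.48% higher and 3.33% lower), with a median difference of 0.67 against -0.07. Marco rose from 0.0968 ± 0.0737 to 4.81 ± 3.83 FPKM (log2 difference 2.16, SE 0.44, adjusted p = 0.012), C5ar1 from 4.98 ± 1.27 to 16.1 ± 4.02 (log2 difference 1.51, SE 0.34, adjusted p = 0.021) and Itgam from 7.52 ± 0.738 to 27.6 ± 12.5 (log2 difference 1.63, SE 0.41, adjusted p = 0.033). C3ar1 (log2 difference 1.59, SE 0.40, adjusted p = 0.032) and Cd5l (log2 difference 1.23, SE 0.31, adjusted p = 0.033) followed, and Ms4a6c, Adgre1 and Msr1 complete the 8. Marco reached 1 FPKM in libraries of day 15 only, so it met the filter through the day on which it was high. Its control libraries of day 10 held 1 to 12 reads, and its call counts as no support for a rise. The count was 0 without control replicate 1 or 4 of day 15, 13 without replicate 3 of day 15, and 1 to 4 without any other single library. Libraries of both days did not overlap in 20 of 39 genes, against 7.01% of all genes in that direction. Markers of other cells differed between the same libraries: the neutrophil list summed to 46.1 to 54.8 FPKM at day 10 and 73.1 to 323 at day 15, pan-leukocyte genes to 148 to 236 and 212 to 470, and the leukocyte gene Ptprc was at 5.73 to 8.4 and 8.44 to 23.8. The kidney transcripts described above were in the control libraries of day 10, and Kap and Umod were at 0 in those of day 15. The part of these cells and transcripts in the result was not tested.

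In model skin 0 of 39 were called between days by limma and by voom, whereas 8.47% of all genes were (1.62% higher and 6.85% lower). An unadjusted p under 0.05 was reached by 6 members, all higher. Of all genes, 27.1% reached it in either direction and 6.36% higher. Libraries of both days did not overlap in Fcgr2b and Fcgr3 alone, both higher at day 15, against 2.65% of all genes in that direction. The smallest p belonged to Ms4a6c (log2 difference 1.02, 95% interval 0.24 to 1.80, adjusted p = 0.088), Fcgr1 (log2 difference 1.42, 95% interval 0.33 to 2.5, adjusted p = 0.089) and Msr1 (log2 difference 0.88, 95% interval 0.11 to 1.65, adjusted p = 0.13). In treatment skin 1 of 39 was called, lower, whereas 9.64% of all genes were called in either direction with 7.53% lower and 2.11% higher. That gene was Lyve1, at 29.3, 39.4, 37.8 and 25.3 FPKM on day 10 and 13.7, 11.7, 14 and 22.8 on day 15 with no overlap (log2 difference -1.06, SE 0.25, adjusted p = 0.012). Of all genes, 9.57% did not overlap in that direction and 4.65% in the other. Without treatment replicate 2 of day 10 Lyve1 was not called. The count was 6 without the 2 libraries that stood apart, whereas 2969 of 13039 genes were called. A test of whether the model-control difference changed between days called 0 members (0 by voom) and 0% of all genes. In that test 1 member had an unadjusted p under 0.05, against 2.7% of all genes. The same test of the treatment-model difference called 0 members (0 by voom) and 0.0997% of all genes. There 6 members had an unadjusted p under 0.05, all lower. Of all genes, 14.4% did in either direction and 5.75% lower.

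**Figure D4:**
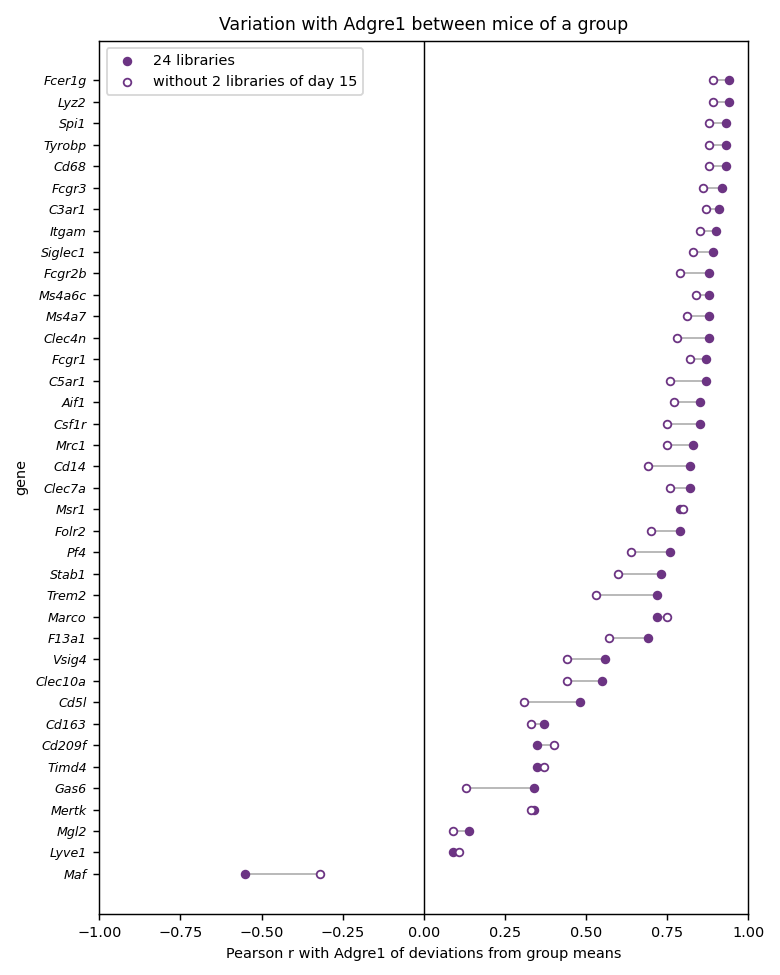
Pearson correlation with Adgre1 of log2(FPKM + 1) after subtraction of group means, for the other 38 genes, over 24 libraries (filled) and over 22 without the 2 libraries that stood apart at day 15 (open). Most genes lie above 0.5, and Maf, Lyve1 and Mgl2 lie lowest.

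Mice of the same group also differed from each other, and most of the genes varied together. After subtraction of group means, the correlation of the other 38 genes with Adgre1 over the 24 libraries had a median of 0.82, with 20 genes at 0.8 or more. It was led by Fcer1g and Lyz2 at 0.94, and the median was 0.75 over 22 libraries without the 2 that stood apart, with 13 genes at 0.8 or more. Lyve1 (0.09), Mgl2 (0.14) and Maf (-0.55) did not follow Adgre1. Mertk and Gas6 (0.34 each), Cd209f and Timd4 (0.35 each) and Cd163 (0.37) followed it weakly, and Gas6 was at 0.13 over the 22 libraries. These points share libraries and their cell makeup, and the values are descriptions with no test.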

How the data were processed

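Skin RNA of 24 mice was measured, with 4 mice in each of 6 groups taken from the sample titles. Poly(A) libraries were made with a VAHTS kit, per the labels' protocols. fastp, HISAT2, HTSeq and the GRCm39 build are named, per the submitters' processing notes, with versions not given in the sources used here. The authors deposited FPKM per gene. The steps between values of a gene gave whole reads for 18715 of 18715 genes above 0 (100%, tolerance 0.01 read), with 37048896 to 41117262 reads per library, and those reads entered voom as an alternative.

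Genes with at least 1 FPKM in at least 4 of 24 libraries (13039 of 18892) were fitted as log2(FPKM + 1) by limma 3.58.1 in R 4.3.3 with 6 group means over all 24 libraries, eBayes with trend and robust settings, and Benjamini-Hochberg adjustment within each of 11 comparisons. A gene was called at an adjusted p under 0.05, and fold changes on this scale understate low genes. The scripts were tested on simulated data. The 39 genes and all lists were chosen with earlier results of these data known. A panel of 12 genes is given in every library. Up to 6 further called members with the smallest p are named for each of the 4 main comparisons, and up to 4 genes from each other list.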

Additional observations from a re-analysis of the deposited data

Results flagged for a closer look

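In 14 of 234 groups of 4 libraries (39 genes in 6 groups), 1 library lay apart from the other 3 beyond the 95% limit of Dixon's test. The genes share libraries and most vary together, so this count cannot be set against a chance rate. Of the 14, 7 were the highest value in day 15 model replicate 3: Lyz2 at 2740 FPKM, Itgam at 92.4, Fcgr3 at 116, Tyrobp at 301, Clec7a at 78.0, Cd14 at 302 and C5ar1 at 54.7. In the same group, replicate 4 was highest for Maf at 70.8 FPKM and lowest for Stab1 at 11.9. In day 10 model skin, Fcgr3 was lowest in replicate 1 at 35.7 FPKM, Siglec1 highest in replicate 2 at 13.2 and C5ar1 highest in replicate 3 at 25.6. In day 10 control skin, replicate 4 was lowest for Folr2 at 23.3 FPKM and for C5ar1 at 3.09.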

How the results depend on the processing

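In the 4 main comparisons, no called member changed direction under any setting tried. Directions in the other comparisons were not checked gene by gene. Fits without the 2 libraries that stood apart at day 15, or without the 4 treatment libraries low in Ddx3y, were chosen after seeing the data. With array weights the number of members called was 30 for model against control at day 15, 5 for treatment against model at day 10, 33 and 4 for treatment against control at days 10 and 15, 28, 7 and 2 between days in control, model and treatment skin, and 1 for the change of the treatment-model difference. Fitting only the groups compared gave 0 for treatment against model at day 15, 32 for treatment against control at day 10 and 21 between days in control skin. Voom gave 5 between days in control skin, and scaling to a common total gave 2 in treatment skin. Without the 4 libraries low in Ddx3y the counts were 33 for treatment against model at day 15, 7 between days in treatment skin and 8 for the change of the treatment-model difference. These 3 counts rest on 1 treatment library at day 15, replicate 3, which was lowest of its group in 36 of 39 members and is assumed to vary like the other groups. Without the 2 libraries they were 16 for treatment against control at day 15 and 6 between days in treatment skin. The cause of these shifts was not tested.

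With single libraries left out, counts ran from 13 to 30 and from 4 to 14 for model against control at days 10 and 15, were 0 throughout and from 6 to 17 for treatment against model, from 1 to 15 and 0 to 15 for treatment against control, from 0 to 13, 0 to 1 and 0 to 4 between days in control, model and treatment skin, and 0 and 0 to 1 for the 2 changes of a difference. Over all genes, array weights called 4927 in model against control at day 10 against 1803, 4592 at day 15 against 1408 (724 with only those groups), and 1502 in treatment against model at day 10 against 25 (16 by voom). Fitting only those groups called 0 against 2563 at day 15.

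Replicate numbers were shared by the groups but do not pair mice: same-numbered deviations correlated between -0.63 and 0.51. With a replicate block, members called were 26 and 11 for model against control, 1 and 7 for treatment against model, 14 and 0 for treatment against control, 7, 0 and 1 between days, and 0 for both changes of a difference. Low levels limit Marco, Cd5l and Vsig4, which averaged under 2 FPKM.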
